A study of Homo sapiens with 10 samples.

Results

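The comparison set tumour cells labelled resistant to the Smac mimetic SM-164 against tumour cells labelled sensitive to it, both isolated from xenografts that had regrown after treatment. Its members were chosen by their labels: the 4 arrays of tumours T2 and T3 (resistant) and the 4 arrays of tumours T6 and T8 (sensitive), 8 of the series' 10 arrays and 4 of its 5 lines. All 4 tumours descend from MDA-MB-231, an established human triple-negative breast cancer line, grown in SCID mice, which lack T and B lymphocytes. All 4 received the drug, at 5 mg/kg into a vein on 5 days a week over 2 weeks, and were harvested after they had grown back. The remaining 2 arrays measured cultured parental MDA-MB-231 cells, which the labels call sensitive and which give a reference level here. A xenograft without SM-164 is not analysed here, so growth in the mouse is common to both classes. The mice's age, the time of harvest and the assay behind the words resistant and sensitive are not given in the sources used here.

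Smac mimetics copy the end of Smac, a mitochondrial protein that binds the inhibitor of apoptosis (IAP) proteins. Loss of cIAP1 and cIAP2 lets tumour necrosis factor (TNF), often made by the tumour cell itself, turn its receptor complex from survival signalling through NF-kB to caspase-8 and cell death. LRIG1, a membrane protein with leucine-rich repeats, is known for driving the degradation of EGFR and related receptors. Beyond that pathway, breast cancer cells that have passed through a mouse are known for shifts in secreted matrix proteins, proteases and prostaglandin synthesis.

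Expression is given as the deposited log2 value, on which a difference of 1 is a doubling. Of 19775 named genes, 14929 reached log2 5 on at least 2 arrays and were tested. The median log2 difference between resistant and sensitive tumours over all of them was -0.02. Both arrays of each line had correlations over genes of 0.996 to 0.998 with each other. The interquartile range over tested genes, a measure of how widely an array's values spread, was 3.34 to 3.61 on resistant arrays and 3.55 to 3.65 on sensitive arrays, and its part in the results was not tested. Defining MDA-MB-231 markers were present, with a summed level of log2 16.1 to 16.3 on every array. Of 9 genes listed as absent or low in this line, PGR and FOXA1 were under log2 5 throughout, while CDH1, CLDN3, EPCAM, ERBB2, ESR1, ESRP1 and GATA3 exceeded it on some or all arrays.

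A gene was said to separate the classes when each resistant tumour differed from each sensitive tumour in the same direction (4 pairs, limma, Benjamini-Hochberg adjusted p under 0.05 in each) and no resistant array overlapped a sensitive one. By this rule 26 genes were higher in both resistant tumours (0.174% of those tested) and 74 were lower (0.496%), 100 in all (0.67%). By the arrays alone, without the tests, every resistant array lay above every sensitive array in 593 genes (3.97%) and below in 961 (6.44%). In 5 of the higher genes (0.0335% of those tested) and 17 of the lower (0.114%) the smallest of the 4 pair differences reached log2 0.5. It reached log2 1 in 4 genes: PLCB4 and SPOCK1 upward, SPARC and KCTD4 downward. The median class difference was 0.44 among the higher and -0.49 among the lower genes. Leaving out 1 array at a time gave 9 to 29 higher and 20 to 116 lower genes. The higher count fell to 13 without T3 replicate 2, 10 without T6 replicate 1, 9 without T6 replicate 2 and 14 without T8 replicate 1. The lower count fell to 40 without T2 replicate 1, 35 without T3 replicate 1, 28 without T6 replicate 1, 20 without T6 replicate 2, 43 without T8 replicate 1 and 44 without T8 replicate 2, and was 116 without T2 replicate 2.

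**Figure D1:**
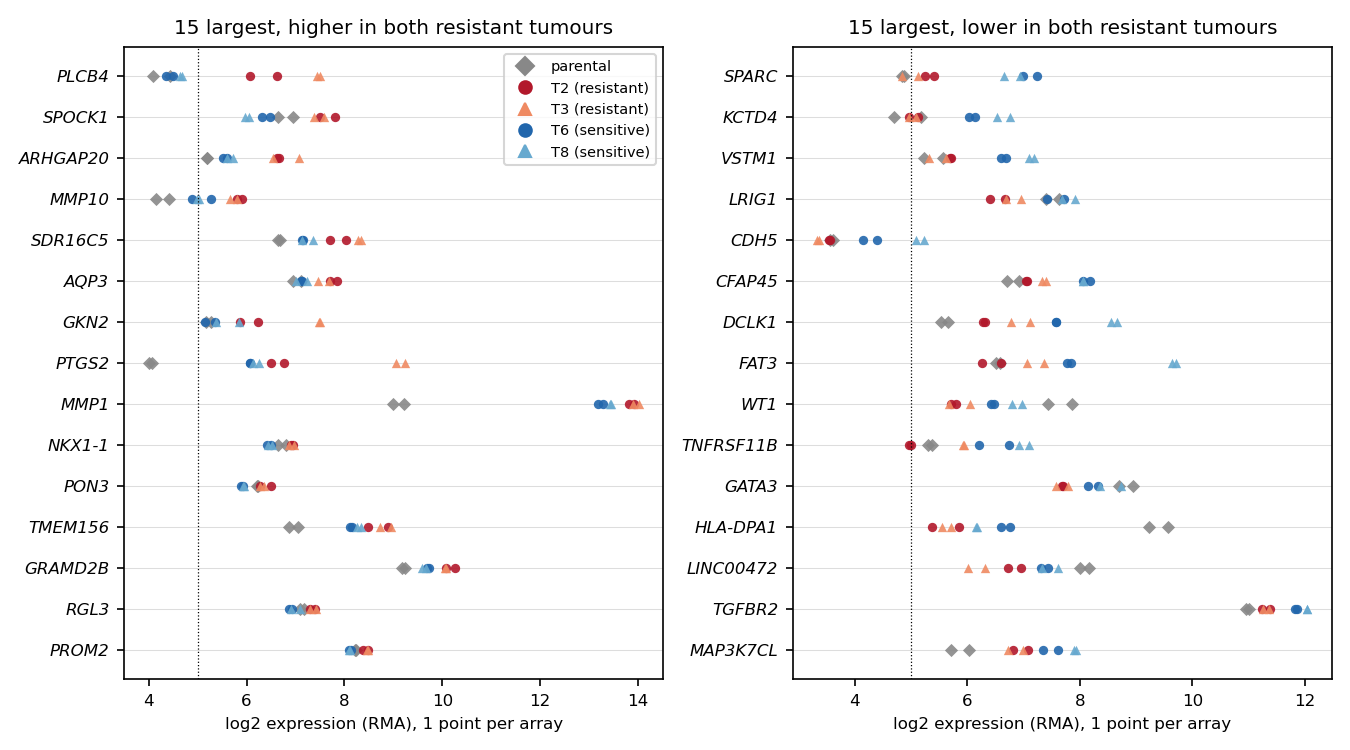
Log2 expression (x axis) on each array for the 15 genes per direction with the largest smallest pair difference; grey diamonds are parental cells, red and orange points the resistant tumours T2 and T3, dark and light blue points the sensitive tumours T6 and T8, and the dotted line marks log2 5. Red and blue points do not overlap in any row, which the rule requires. The grey points lie on either side, at 9.0 and 9.22 for MMP1 against 13.17 or more in the tumours.

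PLCB4, a phospholipase C that couples G protein receptors to calcium release, showed the widest gap between the classes among the 100 genes. Its log2 level was 6.07 and 6.63 in T2 and 7.43 and 7.50 in T3, against 4.35 and 4.50 in T6 and 4.69 and 4.64 in T8. Every resistant array stood at least 1.38 above every sensitive array, and the parental arrays (4.09 and 4.44) lay with the sensitive ones. The class difference was 2.36 ± 0.12 (SE; adjusted p = 4.41e-08 over arrays). Here and below, each ± is an SE over arrays with the tumours fixed. It does not measure the spread between tumours of a class. With the tumour as replicate, the SE for PLCB4 was 0.38 and limma's adjusted p was 0.894. PLCB4 passed the filter through the resistant tumours alone, since all its sensitive arrays were under log2 5.

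SPOCK1, a secreted proteoglycan of the SPARC family, stood at 7.50 and 7.81 in T2 and 7.37 and 7.59 in T3. In T6 it was at 6.47 and 6.31, and in T8 at 5.96 and 6.05. The resistant tumours were nearly level with each other, and the parental arrays at 6.65 and 6.94 fell between the classes. The class difference was 1.37 ± 0.10 (SE; adjusted p = 5.12e-07). ARHGAP20, a GTPase-activating protein, was at 6.62, 6.66, 6.53 and 7.06 on the resistant arrays and between 5.53 and 5.72 on the sensitive arrays. Its parental arrays, both at 5.20, lay below both classes, and its class difference was 1.11 ± 0.11 (SE). SDR16C5, a dehydrogenase of retinoid metabolism, was at 7.71 and 8.03 in T2 and 8.27 and 8.34 in T3 against 7.12 to 7.36 in the sensitive tumours. Here T3 stood above T2, by 0.44.

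SPARC, a matricellular glycoprotein that modulates contact between cells and matrix, had the largest smallest pair difference among the lower genes. Its log2 level was 5.42 and 5.25 in T2 and 5.13 and 4.85 in T3, against 7.24 and 6.99 in T6 and 6.93 and 6.66 in T8. The resistant arrays lay nearer the parental level (4.87 and 4.83) than the sensitive arrays did. The class difference was -1.79 ± 0.10 (SE; adjusted p = 9.42e-08). SPARC and SPOCK1, members of the same protein family, separated the classes in opposite directions. A second SPARC probe set, near background at 3.33 to 4.25 on all arrays, differed by -0.41.

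KCTD4, a protein with a BTB-type domain, was at 4.96 to 5.13 on the resistant arrays, 6.04 and 6.13 in T6 and 6.76 and 6.54 in T8. VSTM1, an immunoglobulin-domain receptor described on leukocytes, followed the same order, at 5.32 to 5.71 in the resistant tumours, 6.59 and 6.69 in T6 and 7.18 and 7.09 in T8. For both genes the parental arrays lay with the resistant ones. Their class differences were -1.33 ± 0.11 and -1.31 ± 0.10 (SE). FAT3, an atypical cadherin, had the most negative class difference of all genes tested, -1.92 ± 0.09 (SE), but the tumours of a class were far apart: 6.27 and 6.61 in T2, 7.05 and 7.37 in T3, 7.84 and 7.78 in T6, 9.71 and 9.63 in T8. With the tumour as replicate, the SE of the FAT3 class difference was 0.66. T3 and T6 differed by only -0.60, and T6 and T8 by -1.86. DCLK1, a kinase known as a tuft cell and stem cell marker, was graded in the same way, from 6.29 and 6.32 in T2 to 8.65 and 8.54 in T8. DCLK1 no longer separated the classes when probe sets were averaged.

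LRIG1 separated the classes by its brightest probe set. Its log2 level was 6.40 and 6.68 in T2 and 6.70 and 6.95 in T3, against 7.73 and 7.42 in T6 and 7.92 and 7.68 in T8. The parental arrays, at 7.63 and 7.40, lay with the sensitive tumours, so the resistant tumours were the ones that stood apart. The class difference was -1.01 ± 0.10 (SE; adjusted p = 1.84e-05). Its 3 other probe sets did not show this: their log2 differences were 0.26, 0.04 and -0.25, and 2 of them were under log2 5 on all arrays. LRIG1 no longer separated the classes when probe sets were averaged, and it had no value without less specific probe sets, since all 4 are of that kind. EGFR itself was at 10.70 and 10.88 in T2 and 11.24 and 11.40 in T3, against 10.64 and 10.65 in T6 and 11.03 and 10.90 in T8. The class difference of 0.25 ± 0.05 (SE; adjusted p = 0.00592) rested on T3: both T2 arrays lay below both T8 arrays. The call was lost with each array centred on its median and with averaged probe sets. MET, another receptor tyrosine kinase, was at 11.50 on both T3 arrays and 11.85 and 12.11 in T2, on either side of the sensitive arrays (11.63 to 11.70).

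Of the 12 LRIG, ERBB and EGFR ligand genes tested, 3 were called higher and 4 lower over arrays, where 4.76% of all genes were called higher and 14.2% lower. LRIG1 alone separated the classes. The list's median difference was -0.01, and 0.03 after repeated quantile normalisation. Among 21 other receptor tyrosine kinases 2 were called higher and 3 lower, and among 20 genes of ERK output and feedback 4 and 4. Neither list held a gene that separated the classes.

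Among the genes measured, neither the drug's own targets nor the TNF receptor machinery held one that separated the classes. BIRC3 (cIAP2), RIPK1 and TRAF2 are not analysed here. BIRC2 (cIAP1), a direct target of SM-164, was at 12.72 and 12.85 in T2 and 12.40 and 12.47 in T3, on either side of the sensitive arrays at 12.49 to 12.57. XIAP, which blocks caspases directly, was at 9.15 and 9.31 in T2 and 10.07 and 10.36 in T3, again on either side of most sensitive arrays (9.81 to 10.14). Over 9 IAP genes and antagonists, 1 was called lower and none higher, beside 14.2% lower and 4.76% higher over all genes tested. Over arrays, BIRC2 was called in 1 of 19 alternatives and XIAP in 5 of 19. TNF was near background everywhere, at 4.73 to 5.15 on resistant and 4.67 to 4.88 on sensitive arrays, with a difference of 0.24 ± 0.11 (SE; adjusted p = 0.139). TNFRSF1A, its main receptor, ranged only from 10.45 to 10.74 over all 8 arrays. CFLAR, an inhibitor of caspase-8 activation, was at 9.71 to 9.89 on resistant and 9.76 to 10.09 on sensitive arrays.

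Of 22 genes of the TNF receptor complex and necrosome, 1 was called higher and 7 lower (4.76% and 14.2% of all genes tested), with a median of -0.12, and none separated the classes. After repeated quantile normalisation 2 were called higher and 1 lower, and the median was -0.05. TNFAIP3 (A20), a ubiquitin-editing brake on NF-kB, was the one called higher: 9.15 and 9.34 in T2 and 9.40 and 9.58 in T3, above all sensitive arrays (8.78 to 9.08), by 0.46 ± 0.06 (SE; adjusted p = 0.000298). TNFRSF1B, the second TNF receptor, was lower by 0.34, with T2 at a mean of 5.27, T3 at 5.09, T6 at 5.53 and T8 at 5.50. CASP8 was at 8.42 and 8.66 in T2, 8.11 and 8.22 in T3, 8.84 and 8.73 in T6 and 8.62 and 8.41 in T8. Its difference of -0.30 ± 0.09 (SE; adjusted p = 0.0283) lost the threshold in 9 of 18 alternatives, and T2 and T8 overlapped.

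Of 13 death ligands and receptors 1 was called higher and 3 lower, beside 4.76% higher and 14.2% lower over all genes tested. TNFRSF11B (osteoprotegerin), a decoy receptor for TRAIL and RANKL, separated the classes. It was at 4.96 and 5.00 in T2, 5.94 and 5.92 in T3, 6.22 and 6.73 in T6 and 6.92 and 7.11 in T8. The class difference was -1.29 ± 0.11 (SE over arrays), and its SE was 0.36 with the tumour as replicate. T2 was the lowest tumour and below the parental arrays (5.31 and 5.38), while T3 was above them. TNFSF10 (TRAIL) itself was at 7.67 to 7.90 on resistant and 7.22 to 7.96 on sensitive arrays, all far under the parental 10.21 and 10.08. Of 15 BCL2 family genes 1 was called higher and 4 lower, and none of them separated the classes by the full rule. PMAIP1 (NOXA), which promotes death, was higher by 0.45 ± 0.05 (SE), with T2 at 12.72 and 12.95, T3 at 12.36 and 12.48 and the sensitive arrays at 12.04 to 12.31. BOK, a pore-forming relative of BAX, was lower by 0.38. None of 8 caspase and apoptosome genes was called by limma's adjusted p over arrays, and 0 of them had an unadjusted p under 0.05.

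The matrix proteases held a pair of neighbouring matrix-degrading enzymes. In the gene order of GRCh38.p14, MMP10 and MMP1 lie next to each other on chromosome 11 with no tested gene between them, and both were higher in both resistant tumours. MMP10 (stromelysin-2) was at 5.80 and 5.90 in T2 and 5.65 and 5.80 in T3, against 5.28 and 4.89 in T6 and 4.99 and 5.04 in T8. MMP1 (interstitial collagenase) was at 13.82 and 13.93 in T2 and 13.91 and 14.02 in T3, against 13.28 and 13.17 in T6 and 13.42 and 13.45 in T8. The class differences were 0.74 ± 0.11 for MMP10 and 0.59 ± 0.05 for MMP1 (SE; adjusted p = 0.000451 and 4.85e-06). Both were lowest in the parental arrays, at 4.40 and 4.14 for MMP10 and 9.22 and 9.0 for MMP1, so all 4 tumours were above the cultured cells. MMP3 (stromelysin-1), named after its values were seen, did not follow: it was at 9.39 and 9.48 in T3 but at 5.98 and 6.02 in T2, below T6 (6.11 and 6.15) and T8 (6.93 and 7.01). Of 21 matrix proteases and inhibitors 5 were called higher and 4 lower, with a median of 0.12. Over all genes tested 4.76% were called higher and 14.2% lower.

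PTGS2 (COX-2), which makes the prostaglandin precursor, was higher in both resistant tumours by very unequal amounts. Its log2 level was 6.51 and 6.77 in T2 and 9.05 and 9.24 in T3, against 6.06 and 6.07 in T6 and 6.25 and 6.12 in T8. The nearest arrays of the classes were 0.26 apart, T2 exceeded the sensitive tumours by 0.57 and 0.45, and T3 exceeded them by 3.08 and 2.96. The mean class difference of 1.76 ± 0.09 (SE over arrays) had an SE of 0.82 with the tumour as replicate. Of 15 prostaglandin genes 4 were called higher and 2 lower, with a median of 0.20, and PTGS2 alone separated the classes. Over all genes tested 4.76% were called higher and 14.2% lower. Of 27 NF-kB targets 4 were called higher and 9 lower. They held a separating gene in each direction, PTGS2 upward and IL6, an inflammatory cytokine, downward. IL6 was at 8.09 and 8.18 in T2, 7.77 and 7.93 in T3, 8.96 and 9.06 in T6 and 8.49 and 8.40 in T8, a difference of -0.74 ± 0.06 (SE).

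The 250 bases before the transcription start of MMP10 and PTGS2 are shown because both hold a TATA box. Those of SPARC and LRIG1, lower genes that hold none, are shown beside them, so the contrast comes from the choice. They are RefSeq sequences of GRCh38.p14, 5′ to 3′ on the gene's minus strand, at chr11:102780629-102780878, chr1:186680424-186680673, chr5:151686916-151687165 and chr3:66501122-66501371 in that order. Capitals mark the letters TATAAA, which begin 31 bases before the start in MMP10 and 32 bases before it in PTGS2.
MMP10: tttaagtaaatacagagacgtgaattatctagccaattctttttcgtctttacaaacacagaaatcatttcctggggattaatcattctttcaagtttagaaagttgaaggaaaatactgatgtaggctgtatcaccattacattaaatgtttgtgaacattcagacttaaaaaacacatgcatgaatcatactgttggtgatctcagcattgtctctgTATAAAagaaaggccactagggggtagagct
PTGS2: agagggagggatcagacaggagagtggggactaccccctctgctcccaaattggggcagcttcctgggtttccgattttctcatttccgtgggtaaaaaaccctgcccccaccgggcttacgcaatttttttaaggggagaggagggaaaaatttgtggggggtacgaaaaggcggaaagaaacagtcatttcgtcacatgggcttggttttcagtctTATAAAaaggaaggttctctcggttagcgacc
SPARC: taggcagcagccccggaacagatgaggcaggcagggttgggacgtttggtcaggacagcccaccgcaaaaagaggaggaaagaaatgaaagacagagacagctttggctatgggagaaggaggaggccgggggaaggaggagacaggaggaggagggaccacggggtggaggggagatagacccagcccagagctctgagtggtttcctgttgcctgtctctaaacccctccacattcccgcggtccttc
LRIG1: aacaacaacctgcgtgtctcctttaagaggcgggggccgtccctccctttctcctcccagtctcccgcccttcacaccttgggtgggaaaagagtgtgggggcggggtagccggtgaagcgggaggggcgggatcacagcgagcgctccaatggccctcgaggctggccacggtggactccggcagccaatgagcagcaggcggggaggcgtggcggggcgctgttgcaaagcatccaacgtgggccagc

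RefSeq promoters of this kind were matched for 79 of the 100 genes that separated the classes. ARHGAP20, MMP1, PLCB4, SDR16C5 and SPOCK1 were not matched. They were the 5 higher genes that separated the classes in all 19 alternatives, so the shares below leave them out. TATAAA on either strand was present in 7 of 19 promoters of higher genes (36.8%) and in 4 of 60 promoters of lower genes (6.67%), against 6.29% of the 11887 promoters of tested genes and 11.1% of all 27305 promoters. The 7 were those of AQP3, EEF2, GKN2, KLF5, MMP10, PTGS2 and TMEM156, and the 4 those of CABLES1, METTL8, PDE12 and S100A4. Of the 19 alternatives, EEF2 and GKN2 separated the classes in 6, TMEM156 in 10 and KLF5 in 11. AQP3 and PTGS2 did so in 15 and MMP10 in 16. The AP-1 letters TGANTCA, also searched on both strands, were in 2 of the 19 and 3 of the 60, against 4.43% of promoters of tested genes. The GC box GGGCGG was in 10 of the 19 and 36 of the 60 (63.1% of promoters of tested genes), and CCAAT in 6 and 28 (34.2%). A match states only that the letters are there.

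The 23 matricellular proteins and proteoglycans, SPARC and SPOCK1 among them, included 5 genes called higher and 2 called lower, with a median of 0.08. Over all genes tested 4.76% were called higher and 14.2% lower. S100A4, a calcium-binding protein known from metastasis, was among 18 mesenchymal state genes, of which 3 were called higher and 4 lower. It was at 10.49 and 10.24 in T2 and 10.47 and 10.50 in T3, against 11.02 and 10.98 in T6 and 11.47 and 11.52 in T8, a difference of -0.82 ± 0.05 (SE). All tumours were under the parental level of 13.12 and 13.05, the resistant ones further. Of 18 epithelial state genes 5 were called higher and none lower, with a median of 0.02, and none passed the rule in all 4 pairs. The largest differences among them were 0.56 for KRT14, which was above log2 5 in T3 alone, and 0.44 for KRT19, a simple epithelial keratin. KRT19 was at 12.37 and 12.47 in T2, 12.91 and 13.01 in T3 and 12.20 to 12.32 on the sensitive arrays. Among 23 genes known from metastatic sublines of the same cell line, 7 were called higher and 7 lower, with MMP1 and PTGS2 separating the classes upward and SPARC downward.

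The transforming growth factor beta (TGF-beta) receptors included 2 lower genes. TGFBR2, the receptor that binds the ligand, was at 11.24 and 11.37 in T2 and 11.26 and 11.35 in T3, against 11.81 and 11.86 in T6 and 12.04 and 12.03 in T8. The resistant tumours were nearly level with each other (difference 0.0005), the arrays of the classes were at least 0.44 apart, and the class difference was -0.63 ± 0.04 (SE; adjusted p = 5.12e-07). Its second probe set, at 6.79 to 7.0 on resistant and 7.40 to 7.77 on sensitive arrays, differed by -0.67. ENG (endoglin), a co-receptor for TGF-beta family ligands, was at 6.40 to 6.78 on resistant and 7.22 to 7.47 on sensitive arrays. Of the 29 TGF-beta genes tested 1 was called higher and 6 lower, with a median of -0.13 (-0.05 after repeated quantile normalisation). Over all genes tested 4.76% were called higher and 14.2% lower. CDH5, the cadherin of endothelial junctions, was at 3.34 to 3.56 on resistant arrays, 4.14 and 4.40 in T6 and 5.23 and 5.10 in T8. It passed the filter through T8 alone, and its resistant arrays were at the parental level of 3.57 and 3.62.

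CDH5 and ENG are also endothelial markers. Of 11 such markers tested, 2 were called higher and 4 lower (4.76% and 14.2% of all genes tested). The summed level of the list was 11.55 to 11.94 on resistant, 11.71 to 12.04 on sensitive and 10.97 to 11.03 on parental arrays. PECAM1, a defining endothelial gene, ran the other way, higher by 0.34 in the resistant tumours and at 7.25 in cultured parental cells. Summed macrophage markers were at 9.88 to 10.60 on resistant, 10.56 to 10.98 on sensitive and 10.95 to 11.02 on parental arrays. Of those 12 markers 6, C1QA, C1QB, CD163, CD86, MRC1 and TYROBP, were under log2 5 on every array. LAPTM5, at 9.16 to 10.16 on resistant and 10.18 to 10.68 on sensitive arrays, carried most of that sum. Of the 6 tested, 1 was called higher (AIF1) and 2 lower (CD14 and LAPTM5). Summed fibroblast and pericyte markers were at 9.999 to 10.15 on resistant, 9.81 to 9.95 on sensitive and 10.04 to 10.07 on parental arrays. COL3A1, FAP, LUM and PDGFRA were under log2 5. Blood and lymphocyte markers were, in the same order, at 8.88 to 9.18, 8.70 to 8.84 and 8.94 to 9.09, with PTPRC, the pan-leukocyte gene, under log2 5. Adipocyte and muscle markers were at 8.82 to 9.07, 8.68 to 8.86 and 8.95 to 9.07. The part of other cells, mouse cells included, in the differences was not tested, and in mixed samples fewer cells of a type and less RNA per cell cannot be told apart.

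Antigen presentation was covered by lists of class I and class II genes, read beside 14.2% of all genes called lower and 4.76% higher. PSMB9 and PSMB8, catalytic subunits of the immunoproteasome encoded near each other on chromosome 6, both separated the classes. PSMB9 was at 9.16 and 9.03 in T2 and 9.15 and 9.07 in T3, against 9.53 and 9.62 in T6 and 9.49 and 9.53 in T8. PSMB8 was at 9.73 to 10.04 on resistant and 10.24 to 10.45 on sensitive arrays, and both genes differed by -0.44 ± 0.05 (SE). Of 16 class I genes none was called higher and 5 lower, with a median of -0.12 (-0.07 after repeated quantile normalisation). HLA-DPA1, a class II chain, was at 5.86 and 5.38 in T2, 5.56 and 5.71 in T3, 6.76 and 6.60 in T6 and 6.16 and 6.17 in T8, far under the parental 9.56 and 9.22. Of 12 class II genes 1 was called higher and 5 lower, with a median of -0.19.

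Cholesterol synthesis genes were called lower in 8 of 18 cases and higher in none, with a median of -0.16, beside 14.2% lower and 4.76% higher over all genes. The lower calls numbered 6 after repeated quantile normalisation and 7 with arrays centred on their medians. None of them passed the rule in all 4 pairs. The largest differences were -0.38 for NSDHL, where T2 was at a mean of 8.31 and T3 at 9.07 beside T6 at 8.92, and -0.31 for IDI1, with resistant arrays at 10.44 to 10.79 and sensitive arrays at 10.86 to 10.96. Of 36 cell cycle and DNA replication genes 3 were called higher and 11 lower, with a median of -0.08. MCM6, a subunit of the replicative helicase, was the member that separated the classes, at 10.48 to 10.71 on resistant and 10.86 to 10.98 on sensitive arrays.

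Phospholipase C and protein kinase C genes (21 tested) had 2 called higher and 4 lower, beside 4.76% higher and 14.2% lower over all genes tested. PLCB4 separated the classes upward and PRKCD, a kinase activated by its lipid product, downward, at 8.39 to 8.64 on resistant and 8.84 to 9.04 on sensitive arrays. Of 16 retinoid genes 2 were called higher and none lower, SDR16C5 and the receptor RARB, whose T2 arrays at 5.56 and 5.50 were close to the T8 arrays at 5.30 and 5.44 while its T3 arrays were at 6.85 and 7.75. Of 9 atypical cadherins FAT3 was called lower and FAT4 higher (FAT4 not with arrays centred on their medians), and of 14 classical cadherins and junction genes 2 were called higher and CDH5 lower.

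**Figure D2:**
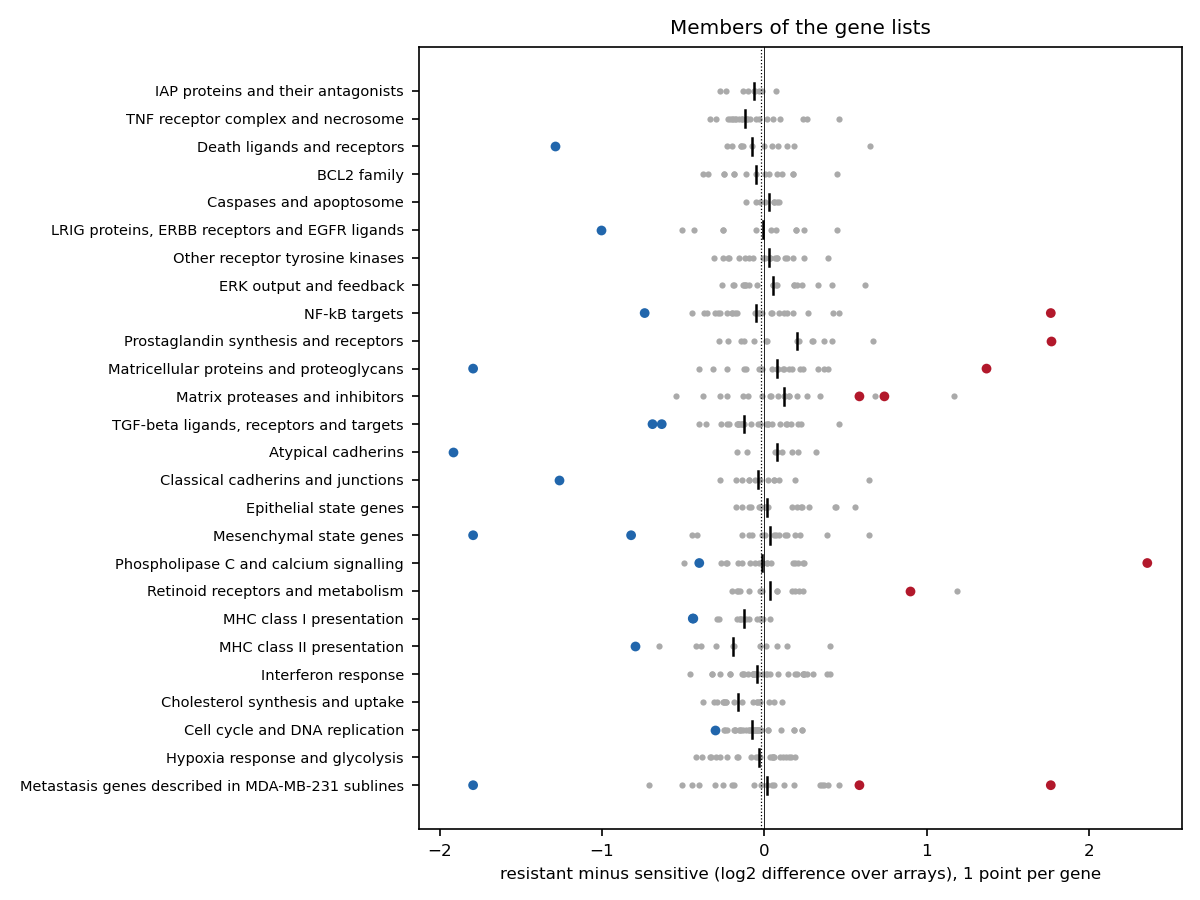
Log2 difference between resistant and sensitive tumours (x axis) for each tested member of 26 gene lists (rows); red and blue points are genes that separated the classes upward and downward, grey points the other members, black ticks the list medians and the dotted line the median of all genes tested, -0.02. List medians ran from -0.19 (class II presentation) to 0.20 (prostaglandin genes), while single separating genes reached -1.92 (FAT3) and 2.36 (PLCB4).

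The remaining large separating genes were single representatives of varied functions. Among the higher ones, AQP3, a water and glycerol channel, was at 7.47 to 7.84 on resistant and 7.0 to 7.23 on sensitive arrays. GKN2, a secreted protein of the stomach, was at 6.24 and 5.87 in T2 and 7.48 and 7.50 in T3, and T2 replicate 2 lay only 0.02 above T8 replicate 2. It separated the classes in 6 of 19 alternatives. NKX1-1, PON3, TMEM156, GRAMD2B, RGL3 and PROM2 had smallest pair differences of 0.31 to 0.43. When probe sets were averaged, TMEM156, GRAMD2B, RGL3 and PROM2 no longer separated the classes, and the calls over arrays of TMEM156, RGL3 and PROM2 were lost. GRAMD2B, RGL3 and PROM2 also did not separate them without less specific probe sets. KLF5, an epithelial transcription factor, and EEF2, the translation elongation factor, were higher by 0.33 and 0.23 (named after their values were seen), and separated the classes in 11 and 6 of 19 alternatives.

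Among the lower ones, WT1, a transcription factor, was at 5.67 to 6.05 on resistant and 6.43 to 6.97 on sensitive arrays, and GATA3, the luminal transcription factor, at 7.58 to 7.80 and 8.14 to 8.73. For both, the parental mean was above that of either sensitive tumour (7.86 and 7.44 for WT1, 8.94 and 8.69 for GATA3). LINC00472, a long non-coding RNA, was at 6.73 and 6.95 in T2, 6.02 and 6.32 in T3 and 7.31 to 7.62 on the sensitive arrays. CFAP45, a cilium protein, was at 7.06, 7.05, 7.33 and 7.40 against 8.05 to 8.18. MAP3K7CL was at 6.72 to 7.09 against 7.34 to 7.93, above the parental 6.03 and 5.72 in both classes.

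Set against parental cells, the separating genes did not share one pattern. Of the 26 higher genes, the parental mean was at or beyond the sensitive side in 15, between the classes in 9 and at or beyond the resistant side in 2. Of the 74 lower genes it was at or beyond the sensitive side in 19, between the classes in 27 and at or beyond the resistant side in 28. LRIG1 lay between the classes close to the sensitive tumours, whereas SPARC, KCTD4, VSTM1 and TGFBR2 were of the last kind, with sensitive tumours the further from parental cells.

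Over arrays, with the tumours fixed, 2837 genes differed between the classes (19% of those tested), 711 higher (4.76%) and 2126 lower (14.2%). The share called higher, 25.1%, rose to 47.8% after repeated quantile normalisation (1428 higher, 1559 lower) and fell to 16.2% with arrays centred on their medians (354 higher, 1830 lower). A p-value of this kind measures the spread between arrays of a line, which the labels do not say came from separate cultures, so that spread may be technical. Of the 711, 457 (64.3%) had the same sign in all 4 tumour pairs and 26 separated the classes; of the 2126, these were 1247 (58.7%) and 74. In the other direction, 89 of the 711 and 276 of the 2126 were called opposite in at least 1 tumour pair. In 355 and 1255 genes respectively, the tumours of 1 class differed from each other by more than the classes did. When each tumour counted as 1 replicate, limma made 0 calls among the 14929 genes: the lowest adjusted p was 0.894, and 661 genes (4.43%) had an unadjusted p below 0.05. With the line as a random block (estimated correlation 0.508) limma called 4: SPARC (adjusted p = 0.00743), PLCB4 and SPOCK1 (both 0.0355) and TGFBR2 (0.0457). That fit used 1 correlation for all genes and 2 tumours per class, so arrays still counted in part as replicates.

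**Figure D3:**
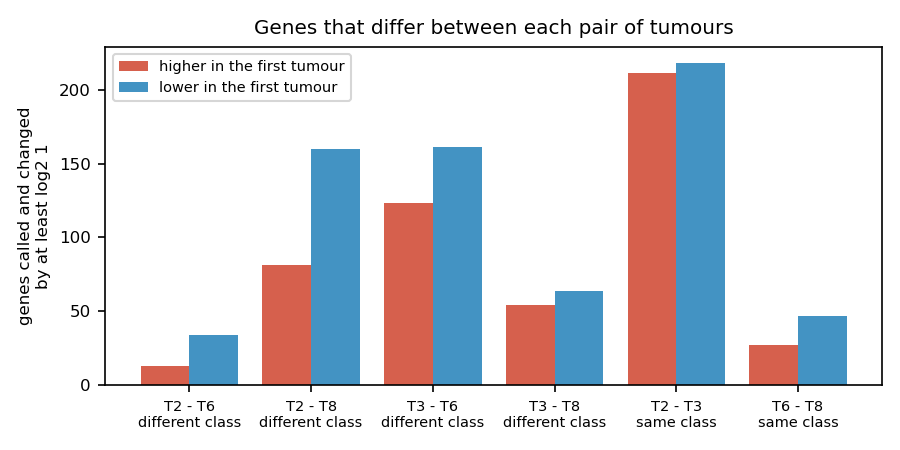
Number of genes (y axis) called and different by at least log2 1 in each pair of tumours, higher (red) or lower (blue) in the tumour named first; the first 4 pairs cross the classes and the last 2 lie within a class. The within-class pair T2 and T3 differed in 429 genes, more than any of the 4 pairs between the classes (47 to 284).

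The number of differences between a resistant and a sensitive tumour depended strongly on the pair. T2 and T6 differed in 1412 genes (9.46%), 47 of them by at least log2 1, and T3 and T8 in 2750 (18.4%), 118 by that much. T3 and T6 differed in 3730 (25%) and T2 and T8 in 4743 (31.8%), 284 and 241 of them by at least log2 1. Within the classes, T2 and T3 differed in 4594 genes (30.8%) and T6 and T8 in 2253 (15.1%), 429 and 74 of them by at least log2 1. T2 was thus closest to a sensitive tumour, T6, and not to T3.

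The 4 pairs can be set side by side as 2 sets of pairs without a shared array, both made of the same 8 arrays. Of genes called in both T2 minus T6 and T3 minus T8, 271 went the same way (19.2% of the 1412 and 9.85% of the 2750) and 208 went opposite ways, with r = 0.15 over the 14929 genes. Of genes called in both T2 minus T8 and T3 minus T6, 287 went the same way (6.05% and 7.69%) and 1669 opposite ways, with r = -0.41. These correlations describe genes on arrays normalised together, and genes are not independent replicates. Changes of at least log2 1 in the same direction in both of the former pairs were seen in 9 genes, ARHGAP20, ARHGAP30, DCLK1, FAT3, KCTD4, PLCB4, SPARC, SPOCK1 and TNFRSF11B. In both of the latter they were seen in 6, KCTD4, PLCB4, RGS7, SPARC, SPOCK1 and VSTM1.

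**Figure D4:**
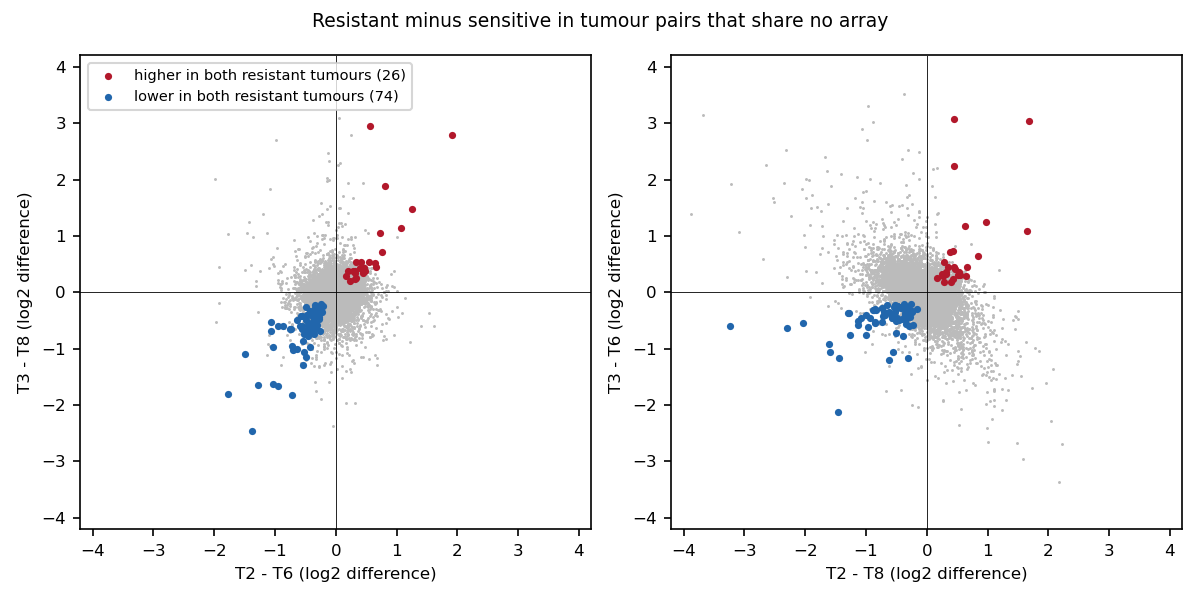
Log2 difference between a resistant and a sensitive tumour in 1 pair (x axis) against the pair of the other tumours (y axis), 1 point per tested gene; red and blue mark genes that separated the classes. On the left (T2 minus T6, T3 minus T8) r over genes was 0.15, and on the right (T2 minus T8, T3 minus T6) it was -0.41, with the separating genes in the upper right and lower left of both.

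The opposite-going genes were of several kinds, named here after their values were seen. TNC (tenascin-C), a matricellular protein, was at 5.94 and 6.12 in T2 and 9.43 and 9.63 in T3, on either side of T6 (7.07 and 7.17) and T8 (7.85 and 7.55), yet its pooled class difference of 0.37 passed the test over arrays. EREG, an EGFR ligand, was at 11.48 and 11.86 in T2 and 9.61 and 9.57 in T3, with T6 at 11.75 and 11.40, level with T2, and T8 at 10.81 and 10.58 between. Interferon response genes (34 tested) had 8 called higher and 3 lower (4.76% and 14.2% of all genes tested), and none separated the classes. Their largest differences were -0.46 for OAS2 and 0.40 for RSAD2, an antiviral enzyme at 6.98 and 7.12 in T2, 5.20 and 5.23 in T3, 6.24 and 6.27 in T6 and 5.17 and 5.24 in T8. IFIT1 was at 11.15 and 11.25 in T2 and 9.24 and 9.15 in T3, again on either side of the sensitive arrays (9.59 to 10.33). With arrays centred on their medians the interferon split was 3 higher and 4 lower. Hypoxia and glycolysis genes (24 tested, 2 called higher, 8 lower) held none that separated the classes. Their split was 6 higher and 6 lower after repeated quantile normalisation and 0 and 6 with arrays centred on their medians. ENO2, a glycolytic enzyme, was at 11.73 and 11.76 in T2 but 10.02 and 10.07 in T3, against 11.73 and 11.63 in T6 and 10.98 and 10.91 in T8, and CA12, a carbonic anhydrase, differed by -0.38 with T3 at a mean of 7.91 and T2 at 8.68.

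Along the genome, a stretch of chromosome 3 that ends at LRIG1 in the gene order of GRCh38.p14 held several of the lower genes. The stretch was chosen after its values were seen, and it gets no test. Of the 74 lower genes 11 were on chromosome 3 (14.9%, where 5.39% of tested genes lie), and all 11 lay within it: SETD5, RPUSD3, TGFBR2, CMTM7, KIF15, CCRL2, KIF9, PRKCD, IL17RD, PDE12 and LRIG1. None of the 438 genes tested on the rest of the chromosome was among the 74. That all 11 lay within the stretch, and none beyond, follows from ending it at LRIG1, the last of the 11. Of the 366 genes tested on the stretch 113 were called lower over arrays (30.9%) and 3 higher, beside 16.9% lower on the rest of chromosome 3, 44.0% (73 of 166) on chromosome 21 and 14.2% over all genes. Their median difference was -0.11 in T2 minus T6, -0.11 in T2 minus T8, -0.08 in T3 minus T6 and -0.08 in T3 minus T8. Within the classes it was -0.01 (T2 minus T3) and 0.00 (T6 minus T8). The median class difference was -0.11 on the stretch, -0.07 on the rest of chromosome 3 and -0.02 over all genes. Against parental cells the stretch stood at 0.05 in T2, 0.04 in T3, 0.15 in T6 and 0.14 in T8. The shift is small beside the differences of single genes, and after repeated quantile normalisation it was -0.06, where all genes stood at 0.01. The count of 11 was 7 after that normalisation, 4 with arrays centred on their medians and 5 without a variance trend. It was 2 to 16 when 1 array was left out. With probe sets averaged, SETD5, RPUSD3, CMTM7, KIF9, IL17RD, PDE12 and LRIG1 no longer separated the classes. SETD5, CCRL2, KIF9, IL17RD, PDE12 and LRIG1 were lost without less specific probe sets. A further probe set went the opposite way for IL17RD, KIF9, LRIG1, PDE12, RPUSD3 and SETD5. Chromosome 6 held 9 of the 74 (12.2%) with 5.25% of tested genes. Chromosome 21 held 5 of the 74 (MAP3K7CL, RCAN1, CBR3, BACE2 and MCM3AP) with 1.11% of tested genes, and its median differed by -0.08 in T2 minus T6, -0.19 in T2 minus T8, -0.02 in T3 minus T6 and -0.17 in T3 minus T8.

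**Figure D5:**
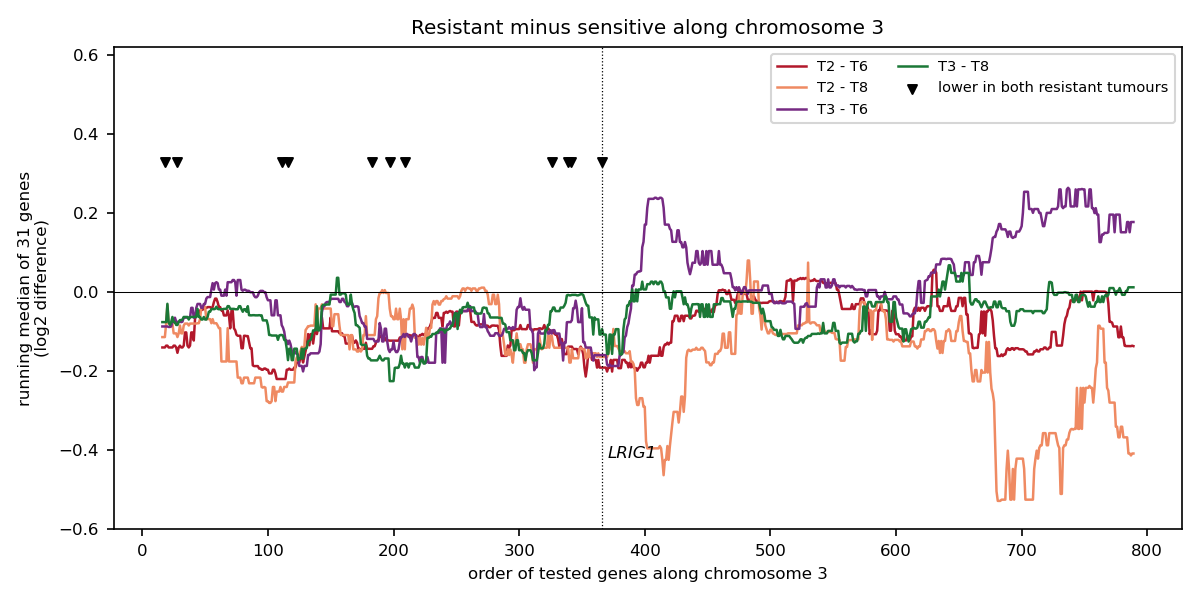
Running median over 31 genes of the log2 difference (y axis) in the 4 resistant minus sensitive pairs (lines), against the order of tested genes along chromosome 3 (x axis); triangles mark the 11 genes lower in both resistant tumours and the dotted line LRIG1. All 4 lines stay mostly below 0 up to LRIG1, with medians of -0.08 to -0.11, and spread apart beyond it.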

How the data were processed

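Total RNA (5 ug for labelling) from 5 lines was measured on Affymetrix arrays, 2 per line. The authors deposited log2 expression values for 54675 probe sets, and affy, RMA and limma are named in the submitters' processing notes without versions. RMA corrects background, quantile-normalises probes and summarises them, which can narrow differences that affect most genes. Precision is limited by the number of arrays, since intensities carry no count of reads.

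From these values, 62 control probe sets were left out, 41091 had 1 gene symbol, 1801 several and 11721 none; 41037 symbols were updated through the RefSeq table of GRCh38.p14. The probe set with the highest mean stood for its gene. Genes at log2 5 on at least 2 arrays were tested with limma 3.58.1 in R 4.3.3 (lmFit, eBayes with trend), with a call at an adjusted p (Benjamini-Hochberg) under 0.05. The fit over arrays and the separating rule were run on simulated data beforehand. Those data held no variation between tumours of a class, so that run cannot show how the calls behave under it. The fit over arrays had 1 coefficient per line on all 10 arrays (5 residual degrees of freedom, prior 9.39). The fit with the tumour as replicate used line means (2 residual degrees of freedom, prior 2.73). Deviations of same-numbered arrays correlated at -0.387 to 0.502 over pairs of lines, at 0.502 for T2 and T3 and 0.241 for T6 and T8 but negative for the 4 resistant and sensitive pairs, so numbers were not taken as pairs.

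Named genes were the 15 per direction with the largest smallest pair difference among separating genes, 12 fixed genes (of which BIRC3 and RIPK1 are not analysed here), and of each list its separating members (up to 4) or else its 2 largest differences. One list is not reported here. The members, the 34 lists and the rules were chosen with earlier results of these data known. Alternatives varied the scaling, filter, probe sets, arrays, variance model and blocks.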

Additional observations from a re-analysis of the deposited data

Results flagged for a closer look

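In 3 of the named genes 1 array of a class lay far from the other 3, measured as its gap to the nearest array over the range of the class. CFAP45 in the sensitive class had a gap of 0.975 of the range, with T6 replicate 1 at 8.18 and the others at 8.05. SDR16C5 in the sensitive class had 0.888, with T8 replicate 1 at 7.36 and the others at 7.12 to 7.15. GRAMD2B in the resistant class had 0.869, with T2 replicate 2 at 10.26 and the others at 10.05 to 10.07. By chance about 1 in 20 groups of 4 would stand out this way, and each class is made of 2 arrays from each of 2 tumours. In all 3 genes the class difference was larger than the distance of the single array.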

How the results depend on the processing

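The counts of separating genes depended on the scaling: 59 higher genes after repeated quantile normalisation, of which 24 were among the 26, and 10 higher and 43 lower with arrays centred on their medians. Higher genes numbered 17 with probe sets averaged and 17 without less specific probe sets, and lower genes 41 without a variance trend. The cause was not tested. A further probe set at log2 5 or more on at least 2 arrays existed for 45 lower and 15 higher separating genes. In 14 and 2 of these, respectively, a further probe set went the opposite way. Leaving out 1 array gave 9 to 29 higher and 20 to 116 lower genes, 1377 to 3536 genes called over arrays (1566 without T3 replicate 1, 1558 without T6 replicate 1 and 1524 without T8 replicate 1), 3432 to 4755 between T2 and T3 and 939 to 2644 between T6 and T8; a lone array was assumed to vary like the other lines. T6 and T8 differed in 1376 genes with centred arrays and 1492 without less specific probe sets. Over arrays, 4 genes were called with the line as a random block. With the tumour as replicate, 23 genes were called without tumour T2 and 1 without T3, and 0 without T6 or T8; the class left with 1 tumour was assumed to vary like the other. With the replicate number as a block, 2500 genes were called, with 26 higher and 66 lower separating genes. In all 19 alternatives 5 of the 26 and 9 of the 74 separated the classes: ARHGAP20, MMP1, PLCB4, SDR16C5 and SPOCK1, and CFAP45, FAM171A1, FAM210B, FAT3, KCTD4, PSMB9, TGFBR2, TGM2 and VSTM1. Of the 39 genes run singly (the 15 per direction and the measured fixed genes) none reversed. Of them, 31 kept their side of the threshold over arrays in every alternative run, and other list members were not run singly. The 15 per direction were picked as separating genes in these same data, so their stability was largely set by that choice. Those that changed were the fixed genes BIRC2, CASP8, TNFSF10, EGFR and XIAP, and the picked genes TMEM156, RGL3 and PROM2.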
